A study of Mus musculus with 15 samples.

Results

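Expression of 10 marker genes of fat and skeletal muscle was examined in subcutaneous tumors, in the cell lines that gave rise to them and in lung. The genes were taken by name from the deposited expression matrix, and all 10 of them were found among its 55359 genes. The 5 fat genes were Adipoq, Plin1, Fabp4, Cfd and Retn, and the 5 muscle genes were Acta1, Ckm, Myh4, Tnnt3 and Mylpf. The question was how much fat or muscle from the site of injection was carried in each tumor sample.

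The series held 15 mouse samples, with 3 in each of 5 groups. The cell line 46LCNEC came from a large cell neuroendocrine carcinoma raised in the lung of a QKO mouse by the adenovirus Ad-CMVcre, and 57SCLC came from a small cell lung carcinoma raised in the same strain by Ad-K5cre. QKO mice carry floxed alleles that include those of Rb1 and Trp53 and lack Rbl1 in all cells, so that Cre delivered by the virus leaves the tumor cells without these genes. The cultures A, B and C of each line (46LCNEC_cell and 57SCLC_cell) were separate flasks or dishes. The tumors 312, 319 and 321 (46LCNEC_allo) and 275, 316 and 317 (57SCLC_allo) grew after cells in Matrigel were injected under the skin of the flank of immunocompetent QKO mice. The group Lung was normal lung (CT3, CT4 and CT5) of littermates of the recipients. Each tumor type was represented by a single line, and the ages of the mice were not given in the sources used here.

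Fat cells store triglyceride in a droplet coated by perilipin-1 (Plin1) and secrete the hormone adiponectin (Adipoq), the serine protease adipsin (Cfd) and resistin (Retn). They also carry fatty acids on the binding protein Fabp4, which capillary endothelium and macrophages produce as well. Fast skeletal muscle fibers are built from actin (Acta1), the fast myosin heavy chain IIb (Myh4), fast troponin T (Tnnt3) and the fast regulatory light chain (Mylpf), and they buffer ATP with muscle creatine kinase (Ckm), an enzyme that the heart shares. In the flank, a sheet of fat and the thin panniculus muscle lie directly under the dermis.

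Values are normalized counts, that is, reads per gene divided by the DESeq2 size factor of the sample. The reads behind them were recovered and numbered 9480244 to 44876572 per sample, with the lowest total in tumor 275, where 1 read was worth 2.39 normalized counts. A value of 3 reads or fewer is called the floor and is read as not detected. It corresponded to 1.56 to 7.18 normalized counts, and it covers counting error only. Replicates were least alike in 46LCNEC_allo, where Pearson's r of log2 values between tumors was 0.952 to 0.969, against 0.970 to 0.996 in the other groups. The labelled tissues carried their markers in part: the lung epithelial gene Sftpc reached 58062 to 85865 in Lung, and the neuroendocrine gene Chga reached 8951 to 12847 in 57SCLC samples. In 46LCNEC samples Chga, Syp and Insm1 lay at 18.5 or below, while Ncam1, another neuroendocrine marker, lay at 3058 to 31510. In tissue samples, fewer cells of a type and less RNA per cell cannot be told apart.

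The starts of 5 of the genes are shown, because Adipoq, Plin1 and Cfd were high in the same samples, Myh4 was read in a single tumor, and Mylpf was read in every sample. Each sequence is the 150 bases before the start of the gene on its own strand, from RefSeq on GRCm38.p6, whose promoter table held 8 of the 10 genes. Capitals mark CCAAT, the E-box CANNTG, TTGNNNAA (a loose form of the C/EBP site), TATAAA and the CArG box, searched on both strands.
Adipoq: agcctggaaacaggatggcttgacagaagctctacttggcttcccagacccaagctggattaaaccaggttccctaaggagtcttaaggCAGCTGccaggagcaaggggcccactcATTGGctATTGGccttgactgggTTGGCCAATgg
Plin1: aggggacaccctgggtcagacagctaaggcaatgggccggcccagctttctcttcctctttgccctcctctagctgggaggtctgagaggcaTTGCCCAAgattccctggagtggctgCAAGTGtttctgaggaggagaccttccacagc
Cfd: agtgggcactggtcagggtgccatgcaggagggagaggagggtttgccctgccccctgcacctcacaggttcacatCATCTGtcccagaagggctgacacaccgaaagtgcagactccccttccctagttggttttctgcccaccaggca
Myh4: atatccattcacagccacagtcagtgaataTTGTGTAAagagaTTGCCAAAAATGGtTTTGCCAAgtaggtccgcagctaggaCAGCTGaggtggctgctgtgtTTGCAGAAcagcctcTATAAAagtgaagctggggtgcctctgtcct
Mylpf: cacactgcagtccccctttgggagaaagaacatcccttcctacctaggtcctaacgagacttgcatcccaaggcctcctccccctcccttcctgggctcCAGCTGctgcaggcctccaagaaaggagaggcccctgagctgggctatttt
They lie at chr16:23146386-23146535 (plus strand), chr7:79732777-79732926 (minus strand), chr10:79890703-79890852 (plus strand), chr11:67237662-67237811 (plus strand) and chr7:127211458-127211607 (plus strand). The Adipoq sequence held 3 CCAAT boxes, the last of which overlapped a TTGNNNAA match, and the Myh4 sequence held 4 TTGNNNAA matches, a TATAAA and a CArG box, which overlapped one of those matches. An E-box was found in all 5 of these sequences, and in 47.7% of the 32851 mouse promoter windows of this length. The other motifs were found in 24.5% (CCAAT), 20.2% (TTGNNNAA), 7.57% (TATAAA) and 0.916% (CArG) of these windows. The MEF2 site and AGGTCA, the half-site of nuclear receptors such as PPARgamma, were in 0.332% and 8.58% of the windows and in none of the 8 promoters. These matches describe the letters only.

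Reads were counted per gene, and all 10 genes are protein-coding. On GRCm39 the fat genes are annotated as Adipoq at chr16:22964106-22976810 (plus), Plin1 at chr7:79369966-79382718 (minus), Fabp4 at chr3:10268785-10273737 (minus), Cfd at chr10:79726668-79728496 (plus) and Retn at chr8:3705324-3710689 (plus). The muscle genes are annotated as Ckm at chr7:19138701-19157965 (plus), Myh4 at chr11:67128336-67151274 (plus), Tnnt3 at chr7:142048605-142070280 (plus) and Mylpf at chr7:126807207-126813470 (plus). In GENCODE release 39, Plin1 and Cfd share no exonic base with another gene on either strand.

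Acta1 could not be measured. It was listed at 0 in all 15 samples, and so were all of the 73 consecutive protein-coding genes in which it lies on chromosome 8 (120719177 to 125072466, GRCm39), among them Rpl13 and Cox4i1, which every cell uses. Acta1 itself, the actin of skeletal muscle, is annotated at 124618501 to 124623661 on the minus strand. Nothing is therefore said of its level.

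Adipoq, the hormone by which fat cells are best known, was above the floor in 2 of the 6 tumors. It stood at 103 normalized counts in tumor 312 (78 reads, 95% Poisson interval 81.7 to 129), at 10.2 in tumor 317 (9 reads, interval 4.67 to 19.4) and at 0 in tumors 319, 321, 275 and 316. The 6 cultures lay between 0 and 2.61, and the lungs held 330 (CT3), 123 (CT4) and 10.5 (CT5). Tumor 312 was thus near lung CT4, tumor 317 was near lung CT5, and the remaining 4 tumors had no Adipoq read at all.

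**Figure D1:**
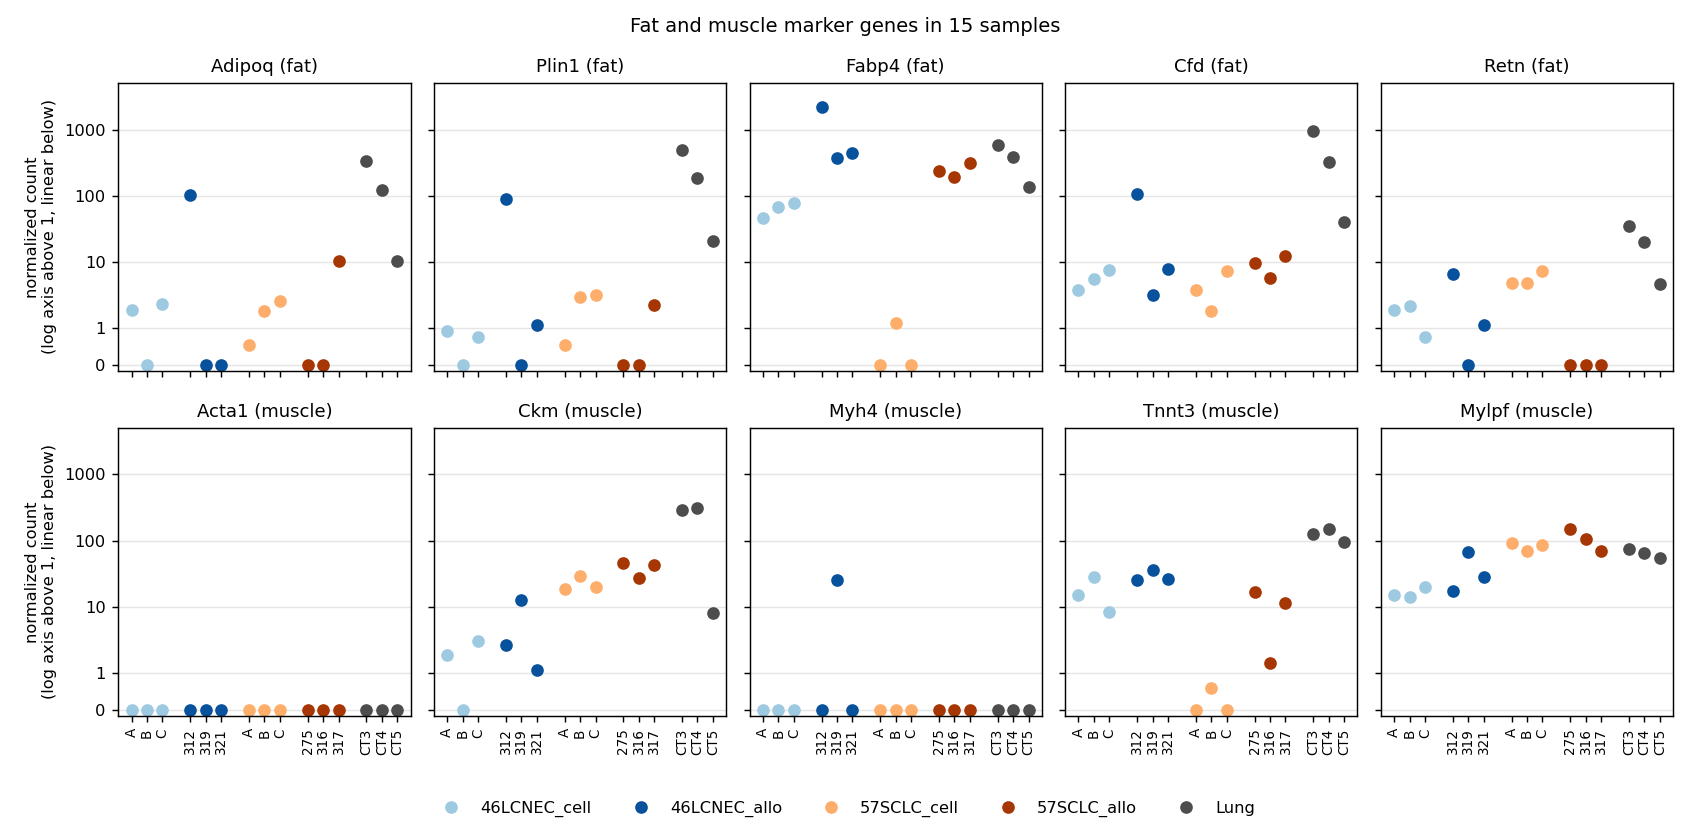
Normalized counts of the 10 marker genes (vertical axis, logarithmic above 1 and linear below) in each of the 15 samples (horizontal axis), with 1 point per sample colored by group. Adipoq, Plin1 and Cfd stand near 100 in tumor 312, Myh4 is above 0 in tumor 319 alone, and Fabp4 is at 194 or more in all 6 tumors.

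Plin1, the coat of the lipid droplet, separated tumor 312 in the same way. It was 88.7 normalized counts there (67 reads, interval 68.8 to 113), 1.11 in tumor 321, 2.27 in tumor 317 and 0 in tumors 319, 275 and 316, so that tumor 312 was the only tumor above the floor. The cultures lay between 0 and 3.13 and the lungs at 494, 183 and 21.1.

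Cfd, the secreted protease adipsin, was 106 normalized counts in tumor 312 (80 reads, interval 84.0 to 132). The other tumors of this line had 3.16 (tumor 319) and 7.74 (tumor 321), and the tumors of 57SCLC_allo had 9.58, 5.66 and 12.5. The cultures ranged from 1.81 to 7.69, and only tumors 312, 321, 275 and 317 exceeded that highest culture, tumor 275 with 4 reads. The lungs held 947, 327 and 39.8. Retn, the hormone resistin, was low in tumors and cultures. It reached 6.62 in tumor 312 from 5 reads, 1.11 in tumor 321 and 0 in the other 4 tumors, while the cultures of 57SCLC had 4.91, 4.83 and 7.30 and those of 46LCNEC had 0.769 to 2.21. Retn in tumor 312 thus lay within the range of the 57SCLC cultures, and all of the tumors of that line were at 0. The lungs held 35.1 (47 reads), 19.95 (20 reads) and 4.68 (4 reads).

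Further genes of fat cells were also high in tumor 312. Among the tumors of its line, Adipoq, Plin1 and Cfd reached 10 normalized counts in tumor 312 alone, so they are given by value and not counted against other genes. Where tumor 319 or 321 reached 10, Fabp4 was at least 2-fold higher in tumor 312 than in both, and so were 4 of 14 genes from a list of 20 adipocyte genes (Lpl, Car3, Gpd1 and Cd36), against 1.53% of 17216 genes. None of the list was at least 2-fold lower there. Gpd1 was 106, 23.2 and 45.4 in tumors 312, 319 and 321, below the 462 to 537 of the 46LCNEC cultures in all of them. Lpl, the lipase that frees fatty acids from lipoproteins, was 628, 137 and 200 in tumors 312, 319 and 321. Cidec, a lipid droplet fusion protein, was 117 in tumor 312, 0 in tumor 319 and 1.11 in tumor 321. Car3, a carbonic anhydrase abundant in fat and in muscle, was 575, 142 and 0 in the same order. Lep, the satiety hormone leptin, and Pck1, an enzyme of glyceride synthesis, were 29.1 and 55.6 in tumor 312 and had no read in the other 5 tumors, and like Cidec they reached 10 in tumor 312 alone.

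The transcription factors of fat cells moved less. Pparg, their master regulator, was 187 in tumor 312, 63.2 in tumor 319 and 122 in tumor 321, below the 272 to 309 of the 46LCNEC cultures. Cebpa, a second factor of fat cell differentiation, was 2480, 1643 and 2499. The brown fat gene Ucp1, which uncouples respiration in brown fat, had no read in tumors 312, 319 and 321.

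Single genes of other lists were also high in tumor 312. The summed level of 7 smooth muscle genes was 6694 there against 3288 and 3693. Its most abundant gene, the smooth muscle actin Acta2, was 4505 against 1683 and 1502. Acta2 was the only 1 of 6 smooth muscle genes at least 2-fold higher than in both other tumors, against 1.53% of 17216 genes. Mylk was 1861 against 1429 and 2061. The keratin Krt14 of the basal epidermis was 1076 against 72.6 and 50.9 (87.2 to 134 in the cultures). Of the other epidermal genes, Krt10 was 315, 320 and 326, and Krt5, Krt1 and Flg had no read in any of the 3 tumors (Flg was listed at 0 in all 15 samples). The sum of the endothelial list was 10902 in tumor 312 against 6494 and 10377. The part of these cell types in the fat gene values was not tested.

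**Figure D2:**
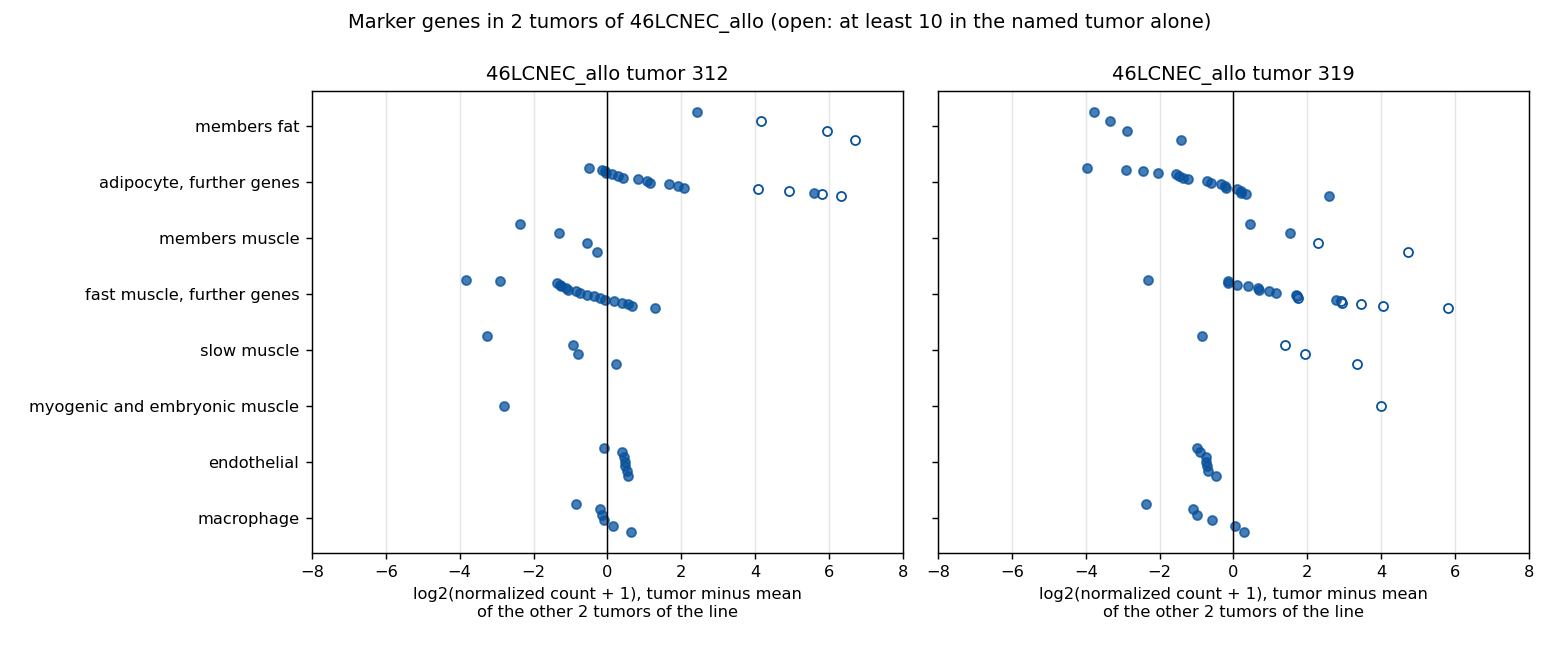
Difference in log2(normalized count + 1) between 1 tumor of 46LCNEC_allo and the mean of the other 2 (horizontal axis) for marker lists (vertical axis), each point being 1 gene with at least 10 normalized counts in 1 of the 3 tumors. Open points are genes that reach 10 in the named tumor alone and so must lie to the right of 0, as Adipoq, Plin1 and Cfd do for tumor 312 and Myh4 and Ckm do for tumor 319, while Fabp4 and Mylpf are filled.

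Fabp4 behaved unlike the other fat markers. In 46LCNEC it was 46.9, 67.3 and 77.7 normalized counts in the cultures and 2176, 366 and 441 in tumors 312, 319 and 321, a mean of 64.0 ± 15.6 against 995 ± 1024 (SD, n = 3 each). In 57SCLC it was 0, 1.206 and 0 in the cultures and 235, 194 and 309 in tumors 275, 316 and 317 (246 ± 58.2, n = 3). Groups did not overlap in either line, and every tumor exceeded every culture.

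Fabp4 rose in the tumors of both lines. Of the 3 marker genes that could be tested in 46LCNEC, Fabp4 was called and Tnnt3 and Mylpf were not, where 14.4% of the 16375 genes tested were called higher and 8.45% lower. Its log2 fold change was 3.47 ± 0.64 (SE, limma, Benjamini-Hochberg adjusted p = 0.00354 over all genes). The call was lost when any 1 of the 3 cultures was left out (adjusted p 0.0144 to 0.0209), with the log2 fold change between 3.27 and 3.63, and without tumor 312 the change was 2.66, with the ratio of means 6.31 in place of 15.6. In 57SCLC, Fabp4 was again the called gene of 3 tested, where 14.4% of 17078 genes were called higher and 2.29% lower, with a log2 fold change of 7.54 ± 0.39 (limma, adjusted p = 2.46e-06). Fabp4 entered this test through the tumors alone, so the call adds nothing to the values by sample. Since all of the 57SCLC cultures were at or below the floor, the mean of the tumors is best given against that floor. It was at least 147-fold higher than the floor averaged over the 3 cultures.

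The rise of Fabp4 was larger in 57SCLC than in 46LCNEC by 4.07 ± 0.82 on the log2(normalized count + 1) scale (limma, adjusted p = 0.0025), where 10.8% of 18440 genes were called higher in this contrast and 6.78% lower. The call was lost with edgeR (adjusted p = 0.0154) and with a pseudocount of 5 (adjusted p = 0.0407), within a range of 5.36e-05 to 0.0407 over all alternatives. The cultures differed in level, with 64.0 in 46LCNEC against the floor in 57SCLC, and among the tumors the lower level was that of 57SCLC_allo (246 against 995). The difference between the tumors was not called (log2 fold change -1.55 ± 0.66, limma, adjusted p = 0.0861).

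Genes of other cell types that are known to produce Fabp4 moved with it. All 7 endothelial genes tested were called higher in the tumors of each line, where 14.4% of all genes tested were called higher in each. Cdh5, Cldn5, Emcn and Tie1 in both lines and Kdr in 57SCLC lay below 10 in the cultures. These entered through the tumors alone, so their calls add nothing to the values. Of the others, Pecam1 and Tek had log2 fold changes of 5.40 and 2.16 in 46LCNEC and 5.04 and 1.7 in 57SCLC. Kdr had 1.92 in 46LCNEC. The summed level of all 7 endothelial genes was 371 to 455 in 46LCNEC cultures and 6494 to 10902 in 46LCNEC_allo. In 57SCLC it was 63.3 to 89.1 in the cultures and 3078 to 4249 in 57SCLC_allo. Cdh5, the cadherin of endothelial junctions, had 0.603 to 3.31 in the 6 cultures and 927 to 3735 in the 6 tumors. All 5 macrophage genes tested (of 7 listed) were also called higher in both lines, and the macrophage sum was 291 to 385 in the cultures and 9327 to 43411 in the tumors. Of these genes, Adgre1 in both lines, Mrc1 and C1qa in 46LCNEC and Csf1r in 57SCLC likewise entered through the tumors alone. Adipoq and Plin1, in contrast, had no read in tumors 275 and 316, in which Fabp4 was 235 and 194. The part of endothelium and macrophages in Fabp4 was not tested.

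**Figure D3:**
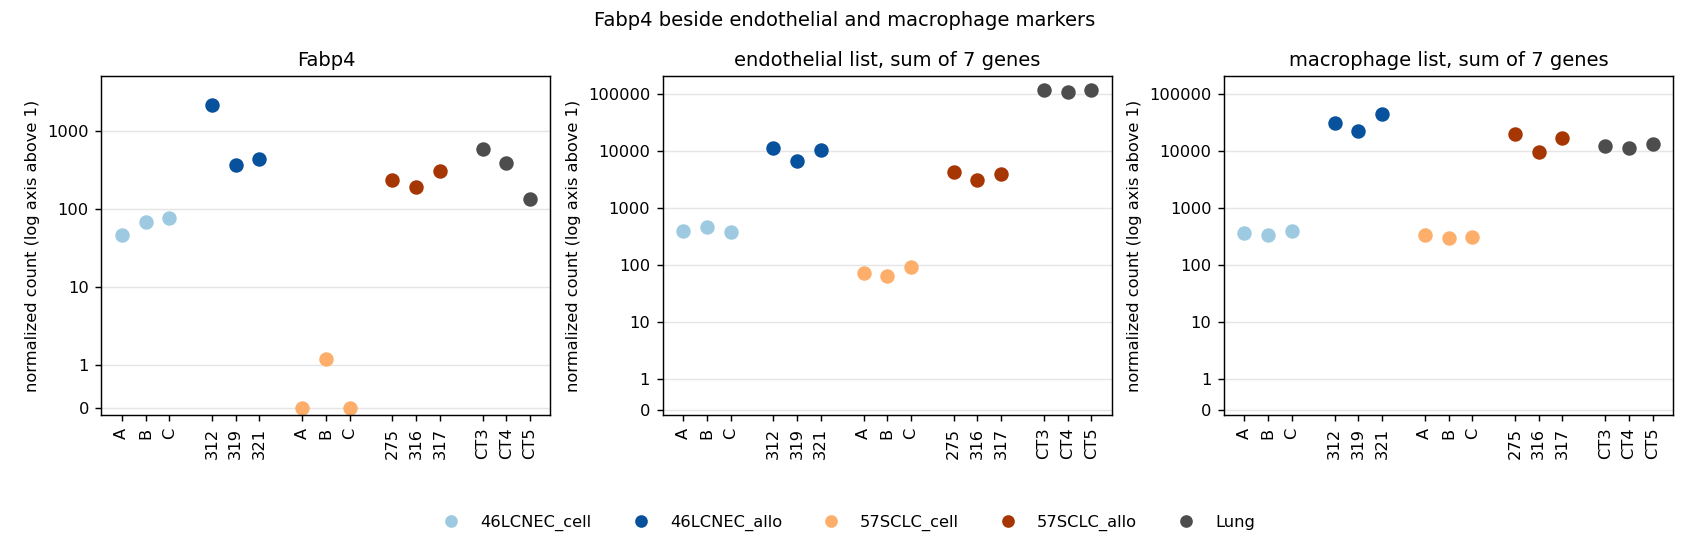
Normalized counts of Fabp4 and the summed normalized counts of 7 endothelial and 7 macrophage genes (vertical axes, logarithmic above 1) in each of the 15 samples, colored by group. All 3 panels rise from cultures to tumors in both lines, and the endothelial sum in Lung (105622 to 117087) exceeds that of every tumor while Fabp4 in Lung (136 to 579) does not.

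Per 1000 normalized counts of the endothelial list, Fabp4 was 200 in tumor 312 against 56.4 and 42.5 in tumors 319 and 321 and 55.2, 63.0 and 79.4 in tumors 275, 316 and 317. Lung gave 4.996, 3.67 and 1.16, and the 46LCNEC cultures gave 121 to 209. Tumor 312 was therefore the tumor in which Fabp4 stood highest relative to endothelial genes, and the other 5 tumors fell between 42.5 and 79.4.

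Among the muscle genes, Myh4 was the most restricted. It was 25.3 normalized counts in tumor 319 (24 reads, interval 16.2 to 37.6) and had no read in any of the other 14 samples. The floor of 3 reads allows up to 7.18 normalized counts in tumor 275, the shallowest library, and up to 4.25 in the others. Tumor 319 was also the highest of its group for the other muscle markers measured. Ckm was 12.6 there against 2.65 (tumor 312) and 1.11 (tumor 321), Mylpf 66.3 against 17.2 and 28.8, and Tnnt3 35.8 against 25.2 and 26.6.

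Tumor 319 held further genes of fast fibers. Among the tumors of its line, Myh4 and Ckm reached 10 normalized counts in tumor 319 alone. From a list of 20 fast muscle genes, so did Myh1, Myh2, Myl1, Pvalb, Mybpc2, Cacna1s and Mb. Genes picked in this way must be highest in tumor 319, and they were not counted against other genes. Mb also reached 10 in every 46LCNEC culture, and its level in tumor 319 lay within the range of those cultures. Where tumor 312 or 321 reached 10, Mylpf was at least 2-fold higher in tumor 319 than in both and Tnnt3 was not, and of 11 genes of the list 2 were (Ttn and Tcap), against 1.87% of 17318 genes. In the other direction, the muscle enolase Eno3 was at least 2-fold lower, at 92.6 in tumor 319 against 497 and 436. The fast myosins Myh2 and Myh1 were 54.7 and 43.2 in tumor 319, and Myh2 had no read in tumors 312 and 321, where Myh1 was 3.97 and 2.21. Titin (Ttn), the giant spring of the sarcomere, was 243 in tumor 319 against 10.6 and 110, and the fast light chain Myl1 was 24.2 against 1.32 and 0.

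Slow and developing muscle gave a partial picture in the same tumor. Of 8 slow muscle genes, Tnni1, Myoz2 and Csrp3 reached 10 in tumor 319 alone among the tumors of its line. Slow troponin I (Tnni1) was 32.6 there against 7.95 and 7.74. The 46LCNEC cultures held 32.8 to 59.6 of Tnni1, so tumor 319 did not exceed them. The slow myosin Myh7 had no read in tumors 312, 319 and 321. The myogenic factor Myog, which is active in differentiating muscle cells, was 22.1 in tumor 319 (21 reads), 0 in tumor 312 and 1.11 in tumor 321, and was the only 1 of 8 myogenic or embryonic genes to reach 10 in the group. Of the fat genes, tumor 319 held no read of Adipoq, Plin1, Cidec, Lep or Pck1, so that the fat and the muscle genes were high in different tumors. The fast troponin I gene Tnni2 was called higher in 46LCNEC_allo than in the cultures without following tumor 319, at 53.0, 35.8 and 29.9 in tumors 312, 319 and 321. Tnni2 was 0 to 1.88 in the cultures and entered this test through the tumors alone. Of the heart genes, Myh6 and Myl7 had no read in tumor 319, and Tnnt2 was 1217 there against 617 and 356, below the 2867 to 3305 of the cultures.

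Ckm was already above the floor in all cultures of 57SCLC, Tnnt3 in all of those of 46LCNEC, and Mylpf in all cultures of both lines. Taken over both lines, 6 of the 10 markers (Fabp4, Cfd, Retn, Ckm, Tnnt3 and Mylpf) were above the floor in all 3 cultures of at least 1 line, and the 4 others were Adipoq, Plin1, Acta1 and Myh4. Fabp4 and Mylpf were above the floor in all 6 tumors.

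Mylpf, the fast regulatory light chain, was 15.01, 14.3 and 19.99 normalized counts in 46LCNEC cultures and 93.8, 70.0 and 85.97 in 57SCLC cultures. The tumors had 17.2, 66.3 and 28.8 in 46LCNEC_allo and 151, 106 and 70.4 in 57SCLC_allo, and the lungs 74.7, 65.8 and 55.0. The 57SCLC cultures exceeded those of 46LCNEC without overlap, and the difference was called (log2 fold change 2.28 ± 0.22, limma, adjusted p = 3.13e-05). From culture to tumor Mylpf changed by 0.94 ± 0.50 in 46LCNEC (adjusted p = 0.155, limma) and 0.33 ± 0.29 in 57SCLC (adjusted p = 0.399), and neither change was called. Of the 1219 exonic bases of Mylpf, 300 are shared with Septin1 on the other strand, and reads there could not be assigned, as the strand setting of the counting was not stated.

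Ckm, the creatine kinase of muscle and heart, was 1.88, 0 and 3.08 in 46LCNEC cultures and 18.5, 28.9 and 19.8 in 57SCLC cultures. The tumors had 2.65, 12.6 and 1.11 in 46LCNEC_allo and 45.5, 26.9 and 43.1 in 57SCLC_allo. Between the cultures the difference was called (log2 fold change 3.34 ± 0.51, limma, adjusted p = 0.000452), and all 3 markers tested there were called, where 23.9% of 16920 genes were called higher in 57SCLC and 22.2% lower. Ckm entered this test through the 57SCLC cultures alone and Fabp4 through the 46LCNEC cultures alone, so their calls add nothing to the values by sample. The call of Ckm was lost with a pseudocount of 0.1 (adjusted p = 0.011) and with all 15 samples in the model (adjusted p = 0.0128), within a range of 5.41e-06 to 0.0128 over all alternatives. Between the cultures Fabp4 was lower in 57SCLC (log2 fold change -5.61 ± 0.38, limma, adjusted p = 3.39e-06), or at least 38.3-fold lower by the floor. From culture to tumor in 57SCLC, Ckm changed by 0.74 ± 0.31 (limma, adjusted p = 0.0904).

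Tnnt3, fast troponin T, was 15.01, 28.7 and 8.46 in 46LCNEC cultures and 25.2, 35.8 and 26.6 in the tumors of that line, which overlapped (log2 fold change 0.85 ± 0.47, limma, adjusted p = 0.163). In 57SCLC it was 0, 0.603 and 0 in the cultures and 16.8, 1.42 and 11.4 in tumors 275, 316 and 317, and tumor 316 was at 1 read. With too few samples at 10 normalized counts, Tnnt3 was not tested there.

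Between the 2 kinds of tumor, none of the 4 markers tested was called with limma, where 16.1% of 17502 genes were called higher in 57SCLC_allo and 14.2% lower. At an unadjusted p under 0.05 (limma) there were 3 (Ckm, Mylpf and Tnnt3), as were 10719 of the 17502 genes, so this count does not set the markers apart. EdgeR called 0 and DESeq2 called 2 (Ckm and Fabp4). The groups did not overlap for any of the 4, but the share of all genes without overlap was not counted. Ckm was nearest to the threshold, at 38.5 ± 10.1 in 57SCLC_allo and 5.46 ± 6.26 in 46LCNEC_allo (log2 fold change 3.03 ± 0.72, limma, adjusted p = 0.0105), and was called when tumor 319 was left out (adjusted p = 0.00153, within a range of 0.00153 to 0.0421 over all alternatives). Without tumor 319, Ckm reached 10 normalized counts in 57SCLC_allo alone and entered the test through those tumors. Mylpf was then called as well (limma, adjusted p = 0.00853), where 15.8% of 18131 genes were called higher in 57SCLC_allo. The difference between the cultures, given above, had the same direction for both genes.

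Plin1 and Cfd were lower in 57SCLC_allo than in Lung, and no fat marker was called for 46LCNEC_allo. Of the 7 markers tested in each comparison, Tnnt3 was lower in 46LCNEC_allo, where 13.4% of 18033 genes were called higher and 22.1% lower, and Plin1, Cfd and Tnnt3 were lower in 57SCLC_allo, where 18.9% of 18517 genes were called higher and 26.9% lower. Plin1 in Lung was at least 47.0-fold higher than the floor of the 57SCLC_allo tumors (log2 fold change -6.41 ± 1.09, limma, adjusted p = 0.000963). Plin1 entered this test through the lungs alone, so its call adds nothing to the values by sample. Cfd was 438 ± 464 in Lung and 9.24 ± 3.42 in 57SCLC_allo (-4.57 ± 1.02, limma, adjusted p = 0.00417), but this call was lost without CT3, without CT4 and without each of the 3 tumors (adjusted p 0.0114 to 0.0205). Adipoq missed the threshold by little (-5.12 ± 1.38, limma, adjusted p = 0.0103) and passed it with edgeR (adjusted p = 0.00928), without CT5 (0.0024) or without tumor 317 (0.00501), within a range of 0.0024 to 0.045. Without tumor 317, Adipoq too entered through the lungs alone. Fabp4 was not called in either comparison, at 368 ± 222 in Lung.

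Tnnt3 was the muscle marker that set Lung apart from the tumors. It was 125, 149 and 94.8 in the lungs (123 ± 26.95, n = 3), above every tumor and every culture. The log2 fold change was -2.03 ± 0.29 for 46LCNEC_allo (limma, adjusted p = 0.00115) and -3.91 ± 0.70 for 57SCLC_allo (limma, adjusted p = 0.00132). Both calls held in each of the 15 alternatives.

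The lung group itself was uneven. Of the genes that reached 10 normalized counts in CT5 itself, 0.888% of 17789 were at least 2-fold lower there than in both other lungs. Among them were the 4 fat markers that reached 10 (Adipoq, Plin1, Fabp4 and Cfd) and 4 of 16 further adipocyte genes (Plin4, Car3, Thrsp and Slc2a4). Retn, below 10 in CT5, was lowest there as well. Adipoq was 31.3 times, Cfd 23.8 times and Plin1 23.4 times higher in CT3 than in CT5. Ckm followed the same split, at 290, 314 and 8.19 in CT3, CT4 and CT5, whereas Tnnt3 and Mylpf did not. When CT5 was left out, 6 of the 8 markers then tested against 57SCLC_allo were called in place of 3 (Retn, Adipoq, Ckm, Plin1, Tnnt3 and Cfd), all lower in the tumors, where 24.9% of 18987 genes were called lower. Against 46LCNEC_allo 2 (Ckm and Tnnt3) were called in place of 1, where 16.9% of 18482 genes were called lower. Retn entered these tests because 2 samples at 10 normalized counts were then enough, and both were lungs (CT3 and CT4). Against 57SCLC_allo, Plin1 likewise entered through these lungs alone.

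Heart muscle genes split the lungs in the same way as Ckm. The cardiac myosin Myh6 was 5994, 3748 and 91.3, the cardiac troponin T gene Tnnt2 was 2396, 1747 and 30.4, and myoglobin (Mb) was 655, 344 and 1.17 in CT3, CT4 and CT5. All 4 cardiac genes that reached 10 in CT5 were at least 2-fold lower there (Myh6, Tnni3, Tnnt2 and Myl4, of 7 listed), as were 2 of 3 slow muscle genes (Myh7 and Tnnt1) and 4 of 11 further fast muscle genes (Ttn, Eno3, Pgam2 and Tcap). The fast myosins were at or under the floor in all 3 lungs, with Myh4 at 0, Myh1 at 0.997 or below and Myh2 at 1.99 or below. Endothelial and lung epithelial genes did not share the split: their sums were 105622 to 117087 and 367623 to 481403. The part of heart muscle in the Lung values of Ckm was not tested.

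**Figure D4:**
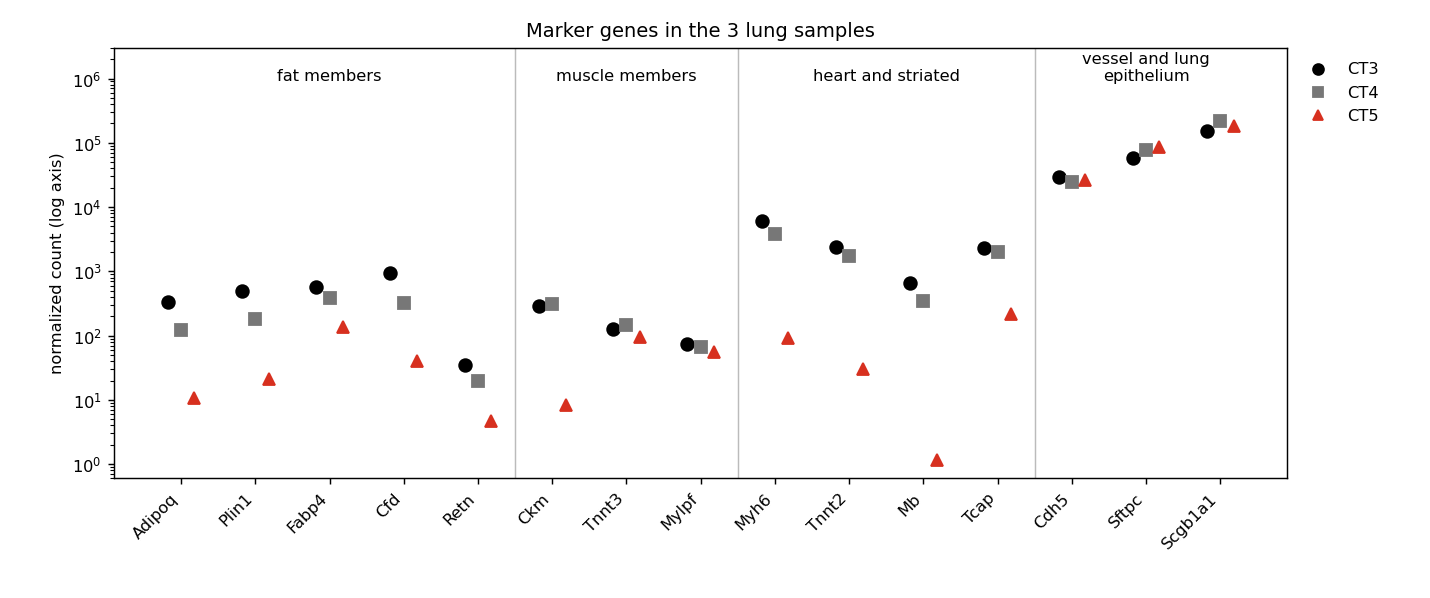
Normalized counts (vertical axis, logarithmic) of fat and muscle markers, heart and striated muscle genes, and vessel and lung epithelial genes in lungs CT3 (circles), CT4 (squares) and CT5 (triangles). All 5 fat markers, Ckm and the heart genes are lowest in CT5, while Cdh5, Sftpc and Scgb1a1 are at like levels in the 3 lungs.

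Within each gene, tumor 312 over lung CT3 was 3.76 for Fabp4, 0.313 for Adipoq, 0.189 for Retn, 0.180 for Plin1 and 0.112 for Cfd. Levels were not compared between genes, since the length over which each gene was counted was not stated. Exons of Fabp4, Ckm and Myh4 overlap a long non-coding RNA on the other strand over 1188, 2564 and 383 bases.

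Over all 15 samples, the genes whose log2 level was most like the mean of the 5 fat markers were Pck1 (Pearson's r = 0.960), Fgfr1op2 (0.913), Dact1 (0.905), Cidec (0.905), Calml3 (0.898), Gm16029 (0.887), Sphkap (0.881), Acad12 (0.879), Dqx1 (0.874) and Acad10 (0.872), among 17288 genes. Of these 10, 7 were highest in lung CT3 and 3 in lung CT4. Genes among the 10 most like the mean of the 5 muscle markers were Hjv (0.900), Gstk1 (0.874), AI854703 (0.867), Pdlim3 (0.867), Eya2 (0.863), Selenbp1 (0.860), Zfp110 (0.859), Lysmd1 (0.858) and Smtnl2 (0.854), each highest in a lung. These values describe 15 samples that fall into 5 groups and share their libraries.

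Over the 6 tumors alone, all 10 genes most like the fat markers were highest in tumor 312 (Cul1, Ruvbl1, Zfp518a, Gsr, Gm12473, Mmp13, Dact1, Nqo1, Slc41a3 and Gm5364, r = 0.965 to 0.983, among 15814 genes). Of the 10 most like the muscle markers, 9 were highest in tumor 319 (Fv1, Cdkl2, Ftx, Ska2l-ps, Sirt4, Ypel2, Pecr, Slc16a4 and Gm10925) and Pttg1 was highest in tumor 275, with r = 0.958 to 0.989. Dact1 was the only gene in both sets for the fat markers. With 6 points, 1 of which stands apart, these values rest on tumors 312 and 319.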

How the data were processed

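Poly-A selected RNA was sequenced as 2 reads of 150 bases in 15 samples. The deposited values are a signal and not raw counts: after alignment to GRCm39 (Rbowtie2) and counting by featureCounts against GENCODE release 27, the authors scaled each sample by its DESeq2 size factor. Rbowtie2 does not split reads over introns, so reads across exon junctions are lost or shortened. The strand setting and the handling of reads with several alignments were not stated. The 55359 rows are all named by an identifier, and every column was used.

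Reads were recovered by division, since every value was a whole multiple of 1 step within 0.05 reads. For the main test, log2(normalized count + 1) was fitted in R 4.3.3 by limma 3.58.1, letting the prior variance follow the mean, in 7 comparisons. Genes entered if 3 or more of the compared samples reached 10 normalized counts. Calls needed a fold of 2 or more and a two-sided p that was 0.01 or less after Benjamini-Hochberg adjustment over all genes of the comparison. Fold changes on this scale understate those of low genes. Alternatives were edgeR 4.0.16 and DESeq2 1.42.0 on recovered reads, other scalings, pseudocounts of 0.1 and 5, no filter, an adjusted p of 0.05, all samples in 1 model and each replicate left out, with the filter then on 2 samples. Procedures were tested on simulated data with large changes in well expressed genes and a single dispersion for all genes. That simulation does not cover markers near the floor or tumors that differ widely. Tables were made with Python 3.11.15, numpy 2.4.6 and pandas 2.3.3. Figures were drawn with matplotlib 3.10.9.

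The members and the gene lists were chosen with earlier results of these data known. The text names all 10 members, up to 4 genes of each other list with the highest mean in the tumors, the members of short counts and the 10 genes most alike in level (at least 50 normalized counts in 1 sample). The other genes named (Lep, Pck1, Cidec, Gpd1 and Adrb3 among the fat genes, the members of longer counts, Krt14, Krt5 and Krt1, Ucp1, Myh6, Myl7, Mb and Tnnt2, and the genes at 0 beside Acta1) were chosen after their values were seen. Genes were counted as 2-fold apart in 1 library only where the low side reached 10 normalized counts, a rule set after the values were seen. Some genes that these rules name are not reported here. Coordinates came from GENCODE release 39 of GRCm39, with 54749 identifiers matched. The sources used here do not say whether the tumors of a group came from separate animals, and cultures of 1 line were separate vessels, so p-values measure only the spread between these samples.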

Additional observations from a re-analysis of the deposited data

Results flagged for a closer look

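The change of Fabp4 from culture to tumor differed between the lines, being 4.07 larger in 57SCLC than in 46LCNEC on the log2(normalized count + 1) scale by the interaction term of limma (adjusted p = 0.0025), with every tumor above every culture in both lines. The 57SCLC cultures had 0, 2 and 0 reads of Fabp4, so the size of this difference depends on the pseudocount: it was 6.51 with a pseudocount of 0.1 and 2.12 with a pseudocount of 5. Groups of 3 samples were not tested for samples that lie far from the others.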

How the results depend on the processing

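Counts of called markers changed under some settings. From culture to tumor, 46LCNEC gave 0 to 1 over samples left out, and 57SCLC gave 2 without the filter (Retn, lower, was added) and 1 to 2 over samples left out (Tnnt3 was added without tumor 316, the tumor at 1 read). Tnnt3 then entered through the tumors alone. Between the tumors the count of 0 became 2 at an adjusted p of 0.05, 2 with DESeq2, 1 with TMM scaling, 1 with library size scaling, 1 with a pseudocount of 5, 1 with all samples in the model, and 0 to 2 over samples left out. For 46LCNEC_allo against Lung the count of 1 became 2 at an adjusted p of 0.05, 2 with DESeq2, 3 with all samples in the model, and 1 to 2 over samples left out. For 57SCLC_allo against Lung it was 2 to 6 over samples left out and 3 to 4 under the other settings. For the difference between the lines in the change from culture to tumor, the count of 1 became 0 with edgeR, 0 with a pseudocount of 5, 2 with DESeq2, and 1 to 2 over samples left out. Between the cultures it was 3 to 4 over samples left out, 2 with a pseudocount of 0.1 and with all samples in the model, and 4 without the filter. Where samples were left out fewer samples and other genes entered the test, and otherwise the cause was not tested.

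Of 492 values of single markers under these settings, 454 kept their direction and their side of the threshold, 12 lost the call, 22 gained it and 4 reversed. Fabp4 in 57SCLC_allo against Lung was 0.071 without CT3 (-0.97 to 0.071 over samples left out), and the difference between the lines for Ckm was 0.13 with a pseudocount of 5, 0.28 without 46LCNEC culture B and 0.46 without tumor 319 (-0.89 to 0.46 over samples left out), all of them uncalled. Library size scaling moved the median log2 fold change of all genes from 0.015 to 0.274 between the tumors, and from 0.00028 to 0.230 between the cultures. The direction of Ckm, Mylpf and Fabp4 in these comparisons was the same under each scaling. With this scaling, 64.2% of called genes were higher in 57SCLC_allo than in 46LCNEC_allo, against 53.1% otherwise.

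Both lines share the culture letters A to C. With the letter as a replicate block, 3 markers were called between the cultures, as without it, and 7797 genes against 7799. Deviations of same-lettered cultures correlated at 0.0916, -0.0837 and -0.0062 over 16920 genes, and only the A cultures correlated best with their own letter, so the letters were not taken to pair the cultures.

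Depth limits the rare markers: at 9480244 reads, a marker at 7.18 normalized counts in tumor 275 cannot be told from absence. Adipoq, Plin1, Cfd, Retn and Myh4 did not enter the tests of tumors against cultures, as too few samples reached 10 normalized counts, so their values are given by sample only.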

Other observations

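Some genes named for fat cells were expressed by the cultured tumor cells. Thrsp, a regulator of lipid synthesis, was 2422, 2373 and 2994 normalized counts in the 57SCLC cultures and 2.21 to 6.15 in those of 46LCNEC, and in the tumors it was 752 to 850 in 57SCLC_allo and 11.6 to 15.5 in 46LCNEC_allo. Lgals12, a galectin of lipid droplets, was 486 to 647 in the 57SCLC cultures and 452 to 517 in the tumors of that line, above the 199 to 250 of Lung. Of the 20 further adipocyte genes, 13 were tested from culture to tumor in 46LCNEC, with 1 higher (Lpl) and 4 lower (Slc2a4, Gpd1, Aqp7 and Scd1), where 14.4% of all genes tested were called higher and 8.45% lower. In 57SCLC 14 were tested, with 2 higher (Cd36 and Lpl) and 1 lower (Thrsp), where the shares were 14.4% and 2.29%. Cd36, at 0.603 to 1.09 in the 57SCLC cultures, entered that test through the tumors alone. The median log2 fold change of those tested was -0.27 and 0.029.

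The embryonic myosin gene Myh3 was 18.2 to 35.6 in the 57SCLC cultures and 26.3 to 45.3 in 57SCLC_allo, against 0 to 8.42 in all samples of 46LCNEC. Connective tissue genes rose in the tumors of both lines. Of 7 fibroblast and adipose progenitor genes, 6 were called higher in each line (Col1a1, Dcn, Pi16, Col3a1, Pdgfra and Lum), where 14.4% of all genes tested were called higher in each. Lum in both lines, Pi16 in 46LCNEC and Col1a1, Col3a1 and Dcn in 57SCLC lay below 10 in the cultures. These entered through the tumors alone, so their calls add nothing to the values. Pi16, which marks progenitor fibroblasts of fat and skin, was 293, 35.8 and 131 in tumors 312, 319 and 321. The list gave no single order of these tumors: Dcn, a small proteoglycan of collagen fibers, was 4101, 10947 and 13493, Lum was 1899, 3387 and 8259, Col3a1 was highest in tumor 319 (348626), and Dpp4, a second gene of such progenitors, was 26.5, 7.37 and 68.6.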
